A study of Mus musculus with 12 samples.

Results

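Transcription initiation was examined at 10 genes of the meiotic cell cycle in mouse spermatocytes: the cyclins Ccna1, Ccna2, Ccnb1, Ccnb2, Ccne1 and Ccne2, the cyclin-dependent kinases Cdk1 and Cdk2, the phosphatase gene Cdc25c and the inhibitory kinase gene Wee1. They were taken by name out of 21938 protein-coding genes of the GENCODE M21 annotation. The rule uses no measured value, but the genes were chosen with earlier results of these data known. A gene counted as called in a substage when the edge of at least 1 dREG peak lay less than 1000 bp from any of its annotated transcription start sites (TSSs). Such peaks are called proximal here. The 10 genes had 28 proximal peaks of 71107 in leptonema/zygonema (LZ), 26 of 68352 in pachynema (P) and 17 of 38603 in diplonema (D).

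Cyclin-dependent kinases (CDKs) are switched on by a bound partner, usually a cyclin, and the cyclin that is present helps to set when and where the kinase works. E cyclins and CDK2 are best known for the start of DNA replication, A cyclins for replication and entry into division, and B cyclins with CDK1 for division itself. WEE1 holds CDK1 inactive by phosphorylating it, and CDC25 phosphatases remove that phosphate. Male prophase I is long, and CDK1 becomes fully active only at its end, while CDK2 is found at telomeres and crossover sites of the paired chromosomes. Ccna1 is largely restricted to male germ cells, where it is needed to leave prophase I, whereas Ccna2 serves dividing cells in most tissues.

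The cells came from wild-type (WT) adult mice and were enriched by STAPUT, which uses gravity to part cells by how large and dense they are. The study's methods report fractions that were not pure, with germ cells from before or after the intended stage as possible contaminants. Its results name elongated spermatids as most of the contamination in every fraction. Nascent RNA was profiled by leChRO-seq, in which engaged RNA polymerase extends its transcript with biotin-labelled nucleotides on isolated chromatin, with 4 libraries per substage and 12 in all. dREG, a machine-learning caller that finds the read pattern left by initiation, was run once per substage on the merged libraries. There was therefore 1 list per substage, no spread between replicates and no test between substages, and every difference below is a description of these 3 lists.

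Each peak carries a dREG score, which becomes larger as the initiation pattern becomes clearer but is not scaled between lists. Each gene was given the score of its best proximal peak, and that score was turned into a percentile among all peaks of the same list, with ties split evenly. A second percentile ranked the same score among the best proximal peaks of all called protein-coding genes. The median score was 0.586 in LZ, 0.572 in P and 0.532 in D. The lists hold no read counts. The study gives a range of mapped reads over its assays and a normalization factor for each library, and neither was taken here as the depth of a merged list. A missing call in the shorter D list is thus a call not made at an unmeasured depth. No interval for counting error could be given.

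Nearly all of the 10 genes were called in every substage. A proximal peak was present at 10 of 10 genes in LZ, where 60.2% of protein-coding genes were called, at 10 in P (60.5% of genes) and at 9 in D (51.6% of genes). Calls in all 3 lists were made at 9 of the 10 genes, compared with 49.5% of genes. Ccna2 was the exception, with peaks in LZ and P and none in D, a pattern held by 7.51% of genes. A peak covered an annotated TSS at 10 genes in LZ, 10 in P and 8 in D, against 56.5%, 56.8% and 47.9% of all protein-coding genes.

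The best peaks of the members stood near the middle of those of all called genes. The median percentile of the members within the list was 84.1 in LZ, 83.5 in P and 76.0 in D, and that of all called protein-coding genes was 82.9, 84.6 and 78.6. The members differed widely among themselves, from 67.5 to 99.1 in LZ, from 31.6 to 94.1 in P and from 0.971 to 97.7 in D. In LZ the order from the top was Ccne1, Cdc25c, Ccna1, Wee1, Cdk2, Cdk1, Ccnb2, Ccne2, Ccnb1 and Ccna2. In P it was Wee1, Ccna1, Cdk1, Cdc25c, Cdk2, Ccne2, Ccne1, Ccnb2, Ccnb1 and Ccna2, so Ccnb2, Ccnb1 and Ccna2 held the lowest places there. In D it was Ccna1, Wee1, Cdk1, Cdc25c, Ccne1, Cdk2, Ccne2, Ccnb1 and Ccnb2. Whether neighbours in these orders differ could not be judged without replicates.

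**Figure D1:**
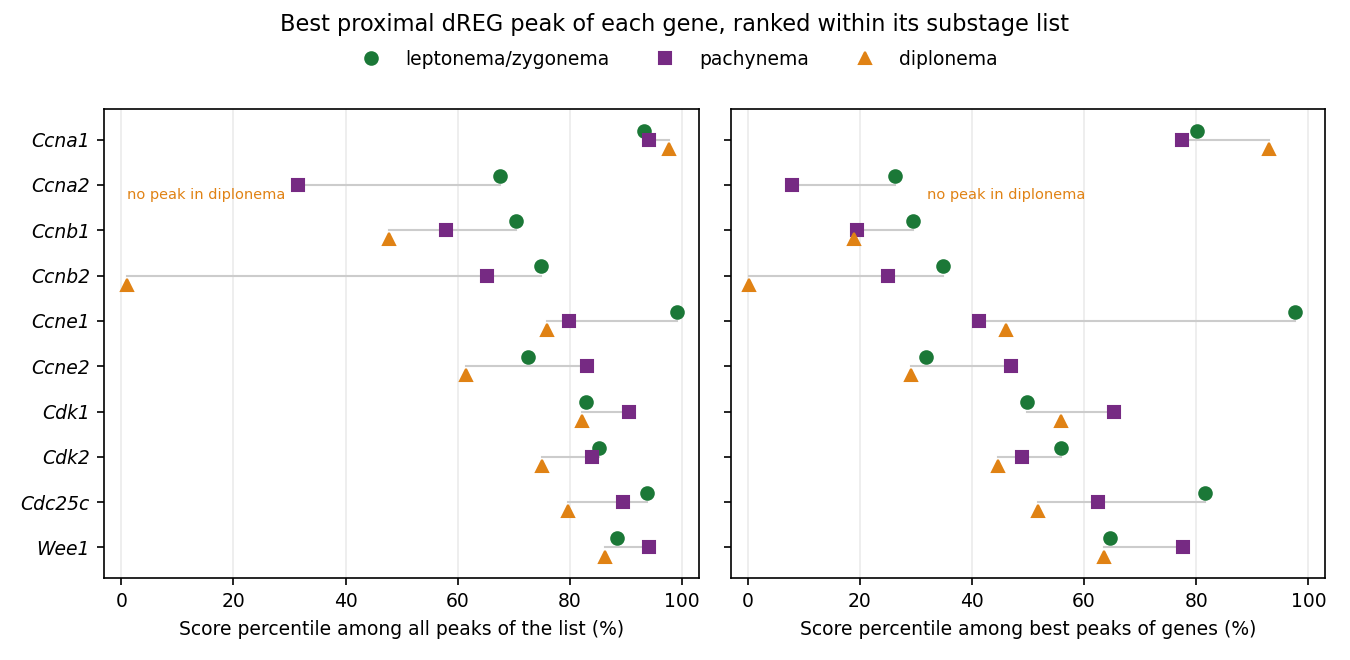
Score percentile (%) of the best proximal dREG peak of each of the 10 genes, among all peaks of its list (left) and among the best peaks of all called protein-coding genes (right), with 1 symbol per substage and a grey line from the lowest to the highest value. Ccna1 stays at or above 93.3 in the left panel, whereas Ccnb2 drops to 0.971 in diplonema and Ccna2 has no diplonema peak.

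The A-type cyclins moved apart. Ccna1 (chromosome 3, 55045469 to 55055501 of GRCm38, minus strand) had a best score of 1.23 in LZ, 1.2 in P and 1.19 in D, at the 93.3rd, 94.1st and 97.7th percentile of each list. Its peak held rank 880 from the top of 38603 in D, rank 4707 of 71107 in LZ and rank 4034 of 68352 in P. D minus P was 3.63 points by list and 8.19 points with lists of equal length, both under 10 points. Among genes its percentile was 80.1 in LZ, 77.5 in P and 93.0 in D, so by that ranking it was 15.6 points higher in D than in P. The best peak was at 55054841 to 55055430 in LZ and in P and covered 3 of the 6 annotated starts. In D a single peak of 970 bp (55054931 to 55055900) covered those starts and also a pair of starts further upstream, which in LZ and P lay under a separate peak of score 0.98 and 1.09. 4931419H13Rik, on the opposite strand, has its own start in this region, and the peaks cannot be divided between the genes because the lists carry no strand.

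Ccna2 (chromosome 3, 36564865 to 36572150, minus strand) had 3 proximal peaks in LZ, 2 in P and none in D. Its best score was 0.789 in LZ and 0.435 in P, at the 67.5th and 31.6th percentile of the lists. This was the lowest percentile of the 10 genes in both lists, and P minus LZ was -36.0 points by list and -18.4 points among genes (26.3 to 7.97). Both best peaks (36571791 to 36572250 in LZ, 36571891 to 36572490 in P) covered the most upstream start of the gene and lay across the first exon and the sequence upstream of it. The percentile of Ccna1 exceeded that of Ccna2 by 25.8 points in LZ and 62.5 points in P. The call of Ccna2 in P was lost when peaks with a score under 0.5 were left out.

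The B-type cyclins both ranked lower in each later substage in the full lists. Ccnb1 (chromosome 13, 100778650 to 100786570, minus strand) had a best score of 0.83 in LZ, 0.649 in P and 0.515 in D, at percentiles 70.4, 58.0 and 47.8. The list percentile was thus lower in P than in LZ (-12.3 points) and lower in D than in P (-10.2 points). Among genes it stood at 29.4 in LZ, 19.5 in P and 18.9 in D, so D minus P was only -0.638 points by that ranking. All 3 best peaks covered the most upstream start of the gene. With lists of equal length D minus P turned to 22.2 points, so the direction between P and D depends on the length of the lists.

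Ccnb2 (chromosome 9, 70407692 to 70421547, minus strand) had 1 proximal peak in each list, and each covered its 1 annotated TSS. The score was 0.902 in LZ, 0.732 in P and 0.266 in D, at percentiles 74.8, 65.3 and 0.971. The D peak (70421441 to 70422070) held rank 38216 from the top of 38603, with a deposited p-value of 0.022. Its position was almost that of the P peak (70421411 to 70422130), but its percentile was lower (-64.3 points by list, and -24.7 points among genes, from 25 to 0.256). The call in D was lost when only scores of at least 0.5, or only p-values of at most 0.01, were kept. Ccnb2 ranked 4.48 points above Ccnb1 in LZ and 7.22 points above it in P, but below it in D (-46.9 points).

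Among the E-type cyclins, Ccne1 had the highest rank of the 10 genes in LZ. Ccne1 (chromosome 7, 38097984 to 38107534, minus strand) had a best score of 1.37 in LZ, 0.945 in P and 0.801 in D, at percentiles 99.1, 79.9 and 76.0. The LZ peak (38107311 to 38108080) held rank 636 from the top of its list. The percentile was lower in P than in LZ by list (-19.2 points) and among genes (-56.4 points, from 97.7 to 41.3). D minus P was -3.87 points by list and 4.7 points among genes, so no direction was common to both rankings. In P an additional peak of low score (0.29) covered the start of a shorter protein-coding transcript.

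Ccne2 (chromosome 4, 11191351 to 11204779, plus strand) had its best peak outside the gene. The best score was 0.864 in LZ, 1.00 in P and 0.633 in D, at percentiles 72.5, 83 and 61.4, so P was the highest. That peak ended 691 bp upstream of the first TSS in LZ, 591 bp upstream in P and 721 bp upstream in D. Peaks over the TSSs of the gene itself showed another order, with a highest score of 0.788 in LZ (percentile 67.5), 0.371 in P (percentile 19.7) and no such peak in D. The best proximal peak thus ranked 10.5 points higher in P than in LZ, whereas the peak over a TSS ranked lower (-47.7 points). No other annotated gene started within 1000 bp of the upstream peak, and whether it serves Ccne2 was not tested.

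**Figure D2:**
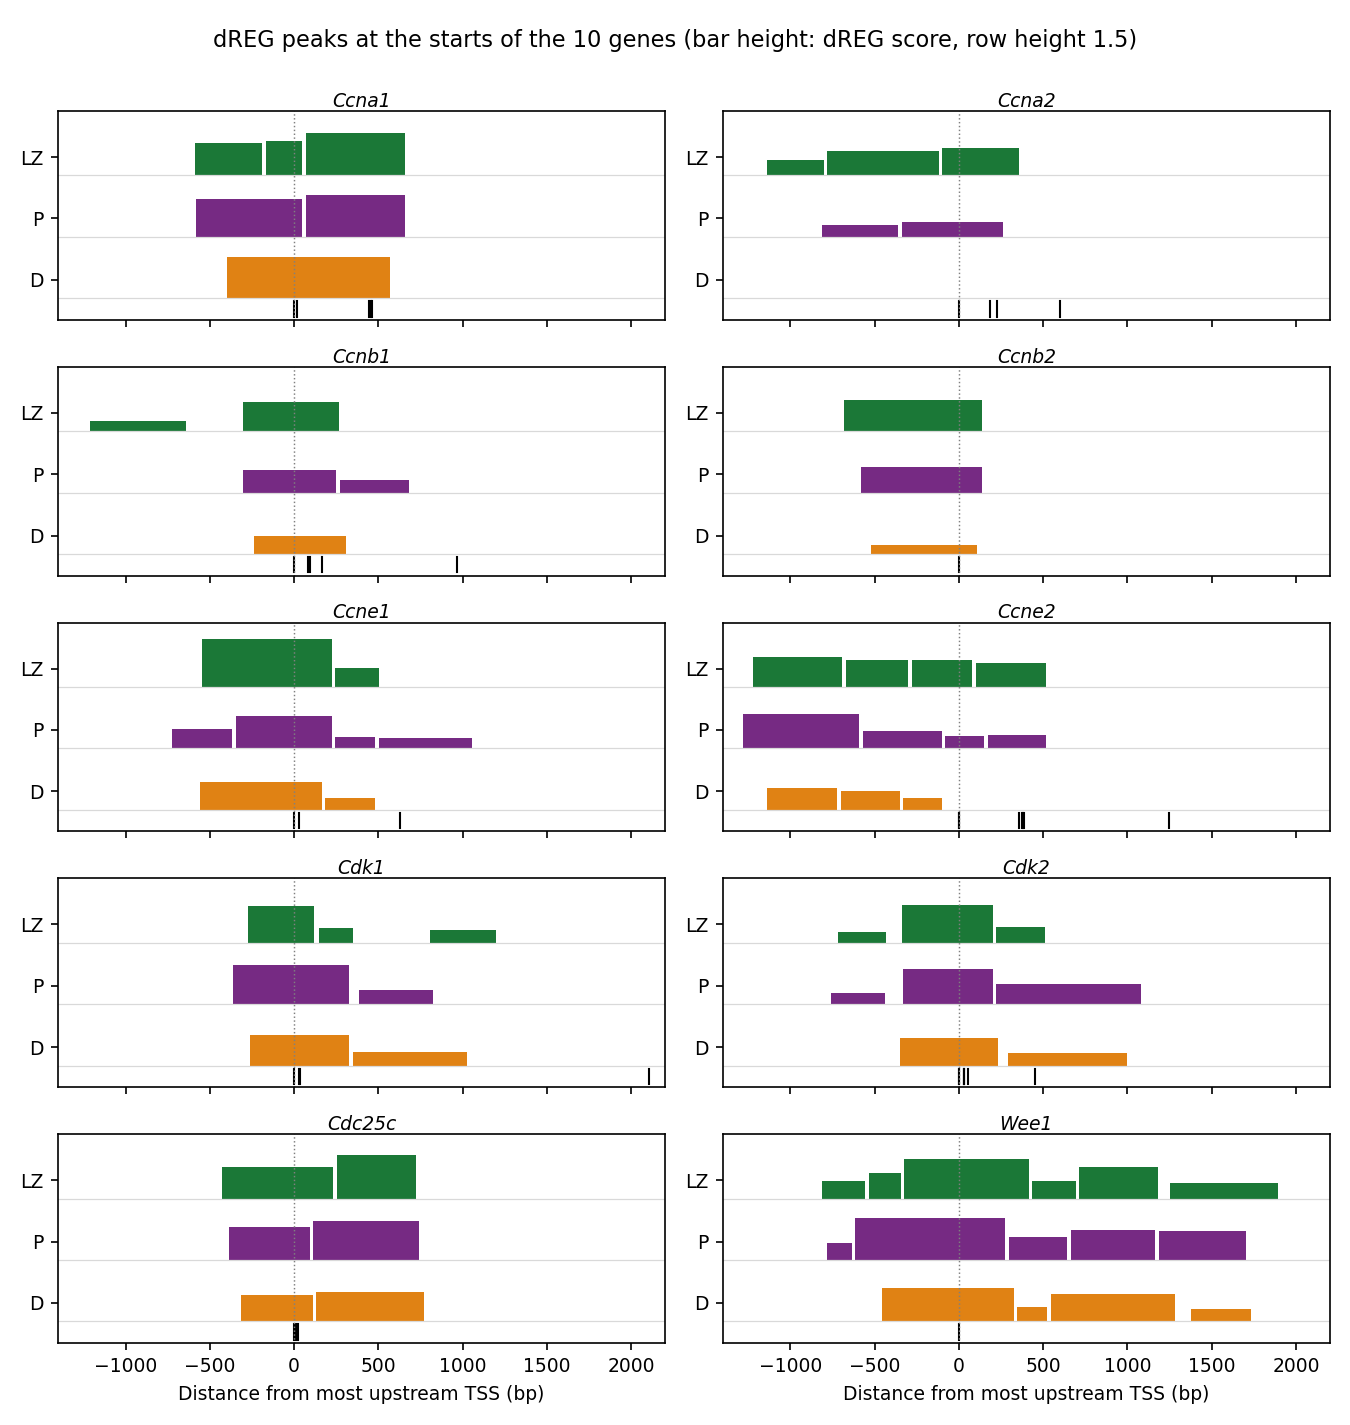
dREG peaks at the starts of the 10 genes in the LZ, P and D lists, drawn as bars from peak start to peak end against the distance (bp) from the most upstream annotated TSS, in the direction of transcription. Bar height is the dREG score (each row spans 1.5), black ticks mark annotated TSSs, and the upstream Ccne2 block, the empty Ccna2 row in diplonema and the low Ccnb2 bar (score 0.266) can be seen.

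Cdk1 and Cdk2, the catalytic partners, varied less in list percentile than the cyclins other than Ccna1, though not among genes, where Ccnb1 varied less. Cdk1 (chromosome 10, 69335146 to 69352938, minus strand) scored 1.05 in LZ, 1.13 in P and 0.885 in D, at percentiles 82.9, 90.5 and 82.1, with P the highest. Among genes it was 15.5 points higher in P than in LZ, and D minus P was -9.64 points. Cdk2 (chromosome 10, 128697939 to 128705031, minus strand) scored 1.09 in LZ, 1.02 in P and 0.788 in D, at percentiles 85.2, 84.0 and 75.1. Cdk1 minus Cdk2 was -2.36 points by list in LZ, 6.43 in P and 7.0 in D. The peaks of both genes covered the starts of their main protein-coding transcripts in every list. Pmel, a pigment-cell gene, has an annotated start near that of Cdk2, so the Cdk2 peaks may be shared with it.

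RefSeq (GRCm38.p6) promoter windows were held for 6 of the 10 genes, namely Ccna1, Ccnb1, Ccnb2, Ccne1, Cdk1 and Cdk2, and none for Ccna2, Ccne2, Cdc25c and Wee1. The stretches printed here are shown because they lay wholly under dREG peaks in all 3 lists. The whole windows of Ccnb1, Ccnb2 and Cdk1 each held CCAAT and 1 of the forms of the cell cycle homology region, and the Ccne1 stretch carries none of the motifs searched. Each runs 5′ to 3′ on the strand of the gene (minus for all 6), is in lower case, and leaves out annotated exons, and coordinates are on GRCm38. Capitals mark the motifs searched on both strands: CCAAT (the CCAAT box), CNGTTG (the MYB core), TTTGAA and TTTAAA (forms of the cell cycle homology region), TTTNNCGC (the E2F site), TATAAA (the TATA box) and TGACGTCA (the cAMP response element). The positions are chr3:55055056-55055241 for Ccna1, chr13:100786571-100786736 for Ccnb1, chr9:70421555-70421754 for Ccnb2, chr7:38107535-38107734 for Ccne1, chr10:69352939-69353138 for Cdk1 and chr10:128705052-128705179 for Cdk2.
Ccna1: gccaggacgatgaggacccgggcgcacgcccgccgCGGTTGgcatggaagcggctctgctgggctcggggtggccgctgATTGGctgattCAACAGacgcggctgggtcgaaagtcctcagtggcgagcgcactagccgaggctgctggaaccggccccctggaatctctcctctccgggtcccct
Ccnb1: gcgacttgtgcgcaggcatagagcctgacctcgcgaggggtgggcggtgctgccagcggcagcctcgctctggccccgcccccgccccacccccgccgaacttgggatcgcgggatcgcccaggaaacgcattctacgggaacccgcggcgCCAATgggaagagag
Ccnb2: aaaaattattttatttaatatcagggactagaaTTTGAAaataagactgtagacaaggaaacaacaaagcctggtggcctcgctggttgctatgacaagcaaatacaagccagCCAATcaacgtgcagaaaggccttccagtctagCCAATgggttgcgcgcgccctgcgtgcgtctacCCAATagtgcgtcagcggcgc
Ccne1: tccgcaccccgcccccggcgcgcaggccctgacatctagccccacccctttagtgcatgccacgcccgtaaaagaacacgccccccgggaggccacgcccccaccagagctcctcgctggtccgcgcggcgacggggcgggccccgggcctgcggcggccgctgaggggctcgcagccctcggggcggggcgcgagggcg
Cdk1: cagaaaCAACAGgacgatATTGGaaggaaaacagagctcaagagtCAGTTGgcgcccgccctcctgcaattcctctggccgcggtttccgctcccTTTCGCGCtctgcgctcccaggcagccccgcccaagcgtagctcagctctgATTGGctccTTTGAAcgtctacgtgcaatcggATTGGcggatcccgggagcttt
Cdk2: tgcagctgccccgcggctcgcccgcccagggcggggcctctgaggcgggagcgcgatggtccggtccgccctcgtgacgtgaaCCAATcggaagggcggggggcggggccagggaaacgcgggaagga

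The CCAAT box was the motif most often held. In the whole window of 250 bases before to 50 bases after the RefSeq start it occurred in 5 of the 6 genes (Ccna1, Ccnb1, Ccnb2, Cdk1 and Cdk2), compared with 37.8% of 20145 protein-coding promoter windows. Around the GENCODE start nearest the best peak it was again in 5 of these 6 genes (38.3% of 13257 genes), and the other 4 members were not searched. Ccnb2 had 3 copies, which began at -87, -54 and -21 from the start. Ccnb1 had 2, at -99 and -67, the second of which lies in an exon of a longer transcript and is not printed. Cdk1 had 3 on the opposite strand, at -208, -80 and -48. Copies 31 to 34 bases apart on the same strand were found in these 3 genes and in 1.15% of promoters, a spacing that was chosen after the sequences had been seen. TTTGAA was held by Ccnb2 and Cdk1 (15.2% of promoters) and TTTAAA by Ccnb1 and Ccne1 (11.6%). CNGTTG was held by Ccna1 and Cdk1 (33.6%), and TTTNNCGC by Cdk1 and Cdk2 (6.3%). TATAAA was in 0 of 6 windows (12.2% of promoters), as was TGACGTCA (2.31%). A match is a description of letters and not a bound site, and a link between the motifs and the ranks was not tested.

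Wee1, the inhibitory kinase of CDK1, had the most proximal peaks of the 10 genes in LZ. Wee1 (chromosome 7, 110122046 to 110143286, plus strand) had 5 proximal peaks over 1920 bp in LZ, 4 over 1890 bp in P and 3 over 1700 bp in D. Its best peak covered its 1 annotated TSS in every list and scored 1.14 in LZ, 1.2 in P and 0.949 in D, at percentiles 88.4, 94.1 and 86.2. It was first of the 10 genes in P and second in D. Among genes its percentile was 64.6 in LZ, 77.6 in P and 63.6 in D, again highest in P.

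Wee1 was also the only one of the 10 with a gene-body peak, defined as a peak that overlapped the gene and was not proximal, and it had 1 in each list. Gene-body peaks were called at 28.6% of protein-coding genes in LZ, 26.9% in P and 15.8% in D. The count depends on the definition. With scores of at least 0.5 it was 0 in LZ, 1 in P and 0 in D (20.4%, 17.9% and 8.82% of genes), and when only a peak over a TSS was left out of the gene body it was 4, 5 and 4 (52.5%, 52.5% and 36.8% of genes). The Wee1 gene-body peak scored 0.437 in LZ (110123301 to 110123940), 0.842 in P (110123231 to 110123750) and 0.345 in D (110123421 to 110123780), and was highest in P. These peaks began 1255, 1185 and 1375 bp from the TSS and were the members' peaks just outside the distance limit together with a Ccna2 peak in LZ at 1161 bp (score 0.385). The proximal peaks just inside it were a Ccna2 peak in LZ at 801 bp (score 0.448) and a Cdk1 peak in LZ at 773 bp (score 0.37). The last proximal Wee1 peak ended at 110123230 in LZ, 110123210 in P and 110123330 in D. The Wee1 gene-body peaks may thus continue the region at its start and need not be separate sites.

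Cdc25c encodes a phosphatase that activates CDK1. Cdc25c (chromosome 18, 34732993 to 34751533, minus strand) had its best peak inside the gene, 228 bp downstream of the nearest TSS in LZ, 88 bp in P and 108 bp in D, and mostly over exons (401 of 470 bp, 528 of 630 bp and 538 of 640 bp). The score was 1.24 in LZ, 1.12 in P and 0.85 in D, at percentiles 93.8, 89.5 and 79.6. Among genes the percentile was 81.6, 62.5 and 51.7, so it was lower in each later substage (-19.1 and then -10.8 points). With lists of equal length the list percentile changed by only -7.2 points from LZ to P and -1.8 points from P to D. The peak over the TSS scored 0.91 in LZ, 0.936 in P and 0.758 in D, at percentiles 75.3, 79.4 and 72.7, with P the highest. 2010110K18Rik, a non-coding gene, starts nearby, and the peaks cannot be assigned to one of the 2 genes.

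Changes of rank were set against those of all genes called in both lists of a comparison, with 10 points as a rule of size. From LZ to P the list percentile was at least 10 points higher at 1 of 10 members (Ccne2), compared with 16.6% of 12498 genes, and at least 10 points lower at 3 (Ccna2, Ccne1 and Ccnb1), compared with 14.4%. The median change was -2.76 points for the members and 1.07 points for all genes. From P to D it was at least 10 points higher at 0 of 9 members, compared with 4.55% of 11166 genes, and lower at 3 (Ccnb2, Ccne2 and Ccnb1), compared with 40.5%. The median change was -8.98 points for the members and -6.2 points for all genes. Ccna2 has no value there because it was not called in D. Both comparisons share the P list and are not independent.

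The lower ranks in D depended on the length of the lists. With each list reduced to its 38603 highest-scoring peaks, 2 members ranked at least 10 points higher in D than in P (Ccnb1 by 22.2 and Ccne1 by 11.6 points), compared with 24.3% of genes, and 1 ranked lower (Ccnb2, -37.5 points), compared with 21.4%. The median change from P to D was then -1.05 points for the members and 1.2 points for all genes, and the members' median percentile was 71.7 in P and 76.0 in D. From LZ to P, 3 members ranked higher (Ccne2, Cdk1 and Wee1), compared with 28.3% of genes, and 3 lower (Ccnb1, Ccnb2 and Ccne1), compared with 16.8%. Ccnb2 in D and Ccne1 and Ccnb1 in P thus passed the rule downward with either length, and Ccne2 in P passed it upward, and Ccna2 was no longer called in P.

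Ranking among genes changed which members passed the rule. From LZ to P, 3 members were then at least 10 points higher (Ccne2, Cdk1 and Wee1; 25.4% of genes) and 3 at least 10 points lower (Ccna2, Ccne1 and Cdc25c; 24.2% of genes). From P to D, 1 was higher (Ccna1; 19.3% of genes) and 4 were lower (Ccnb2, Ccne2, Cdc25c and Wee1; 38.2% of genes). Ccne2 higher and Ccna2 and Ccne1 lower in P, and Ccnb2 and Ccne2 lower in D, were common to both rankings. Both values of Ccne2 rest on its upstream peak. With a distance limit of 500 bp D minus P was 10.7 points, for the peak over or nearest to a TSS it was -3.08 points, and with lists of equal length -8.44 points.

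**Figure D3:**
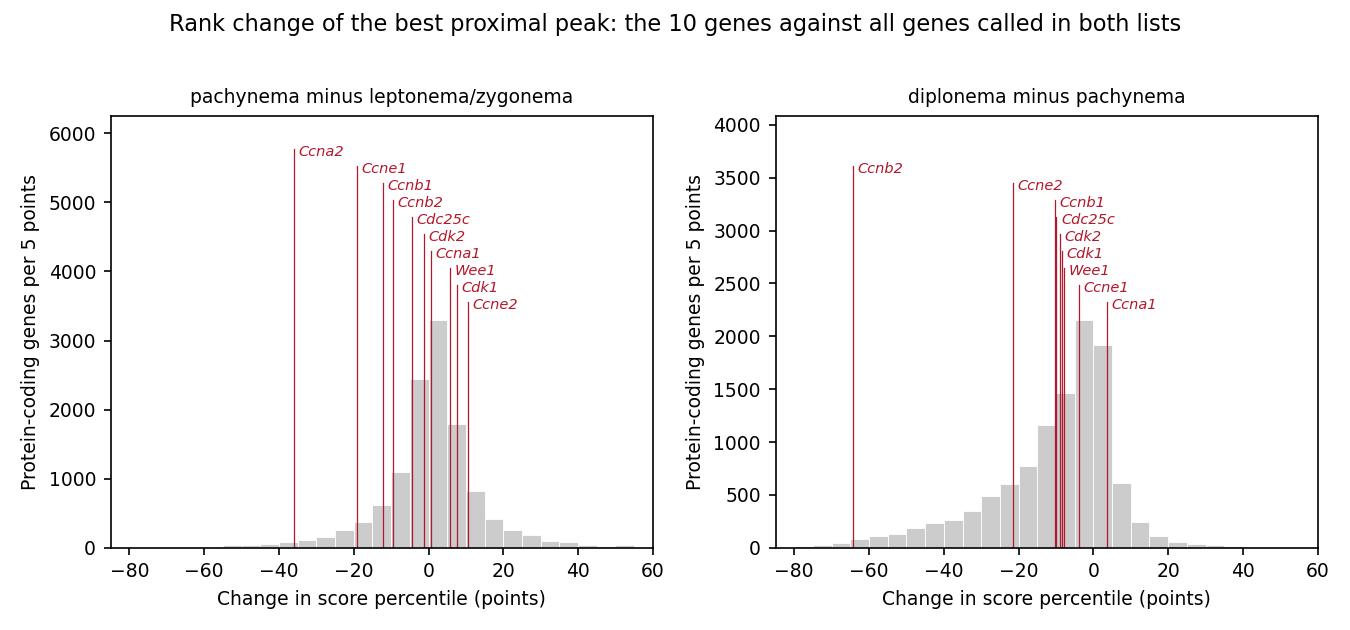
Change in list percentile (points) of the best proximal peak for all protein-coding genes called in both lists (grey bars, genes per 5 points) and for the members (red lines), from leptonema/zygonema to pachynema (left) and from pachynema to diplonema (right). Ccna2 lies in the lower tail on the left (-36.0 points) and Ccnb2 in the lower tail on the right (-64.3 points), whereas 6 of the other 8 members on the right lie between -10.2 and -3.87 points in these full lists.

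Other genes of CDK control were taken as a list of 30. Proximal peaks were called at 30 in LZ, 29 in P and 25 in D, beside 60.2%, 60.5% and 51.6% of all protein-coding genes, with median percentiles of 76.9, 80.6 and 77.0. The 5 without a call in every list were Ccnd1, Ccnd2 and Ccnd3, the D cyclins of G1 phase, Cdc25b, a phosphatase of CDK1, and Cks1b, a small CDK-binding protein. Ccnd1 was called in LZ only (score 0.356). Ccnd2 scored 0.385 in LZ and 0.373 in P, Ccnd3 0.897 and 0.497, Cdc25b 0.924 and 0.685, and Cks1b 0.652 and 0.405, and none of them was called in D. Ccna2 shared this pattern of calls with Ccnd2, Ccnd3, Cdc25b and Cks1b.

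Of the 29 listed genes called in LZ and P, 7 ranked at least 10 points higher in P (16.6% of all genes) and 5 at least 10 points lower (14.4% of all genes). Among those called in all 3 lists the largest differences upward were at Cdk7, the kinase that activates CDKs (55.7 to 77.0, or 21.3 points), Cdkn1c, a CDK inhibitor (20.3 points), and Cks2, a CDK-binding protein with a known role in male meiosis (18.3 points). The largest downward were at Cdkn1b, another inhibitor (-20.5 points), Cdk4, the partner of D cyclins (-15.6 points), and Fzr1, an activator of the anaphase-promoting complex (-7.0 points). Of the 25 called in P and D, 0 ranked at least 10 points higher in D (4.55% of all genes) and 11 at least 10 points lower (40.5% of all genes). With lists of equal length these counts became 8 higher (24.3% of all genes) and 4 lower (21.4%), and from LZ to P, over 26 genes, 9 were higher (28.3% of all genes) and 4 lower (16.8%). The largest differences downward were at Cdkn1c (69.6 to 1.45, or -68.1 points), Fbxo5, an inhibitor of the anaphase-promoting complex (-41.4 points), and Cdk4 (-39.0 points). The largest upward were at Cdkn1b (8.69 points), Cdc20, another activator of that complex (6.59 points, 90.0 to 96.6), and Hspa2, a chaperone of CDK1 in spermatocytes (3.3 points). Spdya, a non-cyclin protein that activates CDK2 at meiotic telomeres, stood at 92.4, 95.1 and 96.8.

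**Figure D4:**
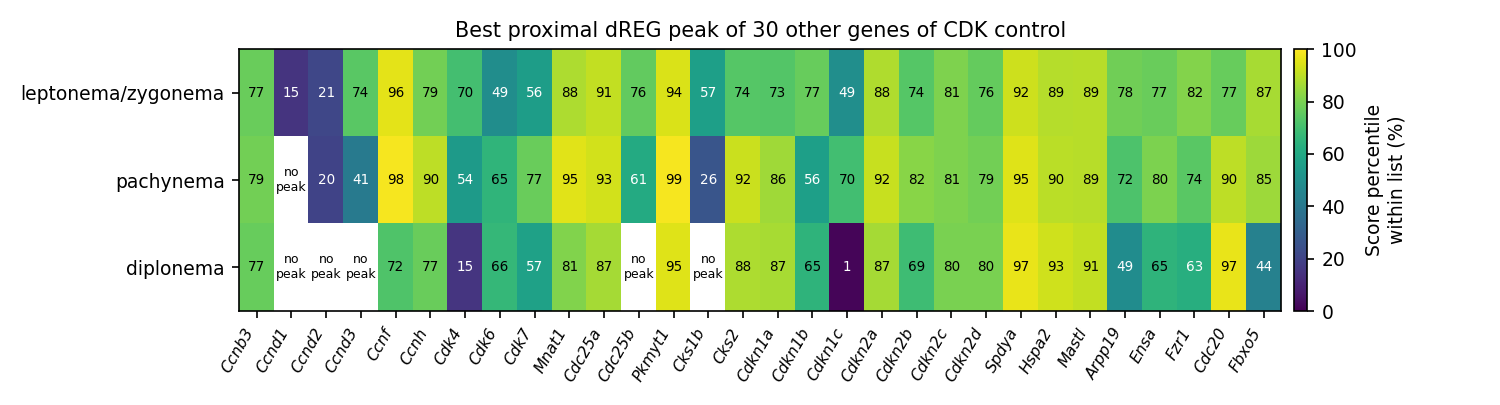
Score percentile within the list (colour scale and printed value, %) of the best proximal peak of 30 other genes of CDK control (columns) in the 3 substages (rows), with white cells where no proximal peak was called. The 3 D cyclins, Cdc25b and Cks1b have no diplonema peak, and Cdkn1c and Cdk4 are lowest in diplonema, at 1.45 and 15.4.

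The labelled cell types were checked against marker genes by call, since a call is not a level. Of all protein-coding genes 60.2% were called in LZ, 60.5% in P, 51.6% in D and 49.5% in all 3 lists. All 8 meiotic prophase markers and all 5 markers of pachynema and later had a proximal peak in every list. Calls made in every list cannot tell the substages apart. Of the 11166 protein-coding genes called in P and D, 3034 ranked higher in D and 8132 lower in the full lists. Marker ranks with lists of equal length were not computed. Between P and D, 5 of the 8 meiotic markers ranked higher in D, by 0.969 (Hormad1) to 4.56 points (Sycp3), and 3 ranked lower (Spo11 by -4.8, Dmc1 by -21.4 and Mlh3 by -47.3 points). Of the 5 markers of pachynema and later, 3 ranked higher in D than in P, by 0.315 to 18.5 points. The other 2 ranked lower (-0.391 and -21.9 points). Spermatogonial markers were called at 4 of 5 in LZ and P and 3 of 5 in D. Kit stood at percentile 82.9 in P and 16.9 in D, Dmrt1 at 86.5 and 14.2, and Zbtb16 at 74.4 and 66.3 (33.6 and 33.7 among genes). Stra8 had no D peak, and Gfra1 had no peak in any list. Sertoli markers were called at 1, 3 and 2 of 4 in LZ, P and D, with no peak at Rhox5 in any list. The 2 called in both P and D ranked lower in D (-4.54 and -17.9 points), as most genes did. Spermatid markers were called at 3 of 4 in each list. The 3 called spermatid markers ranked higher in D than in P, with Tnp1 at 80.5 in P and 90.7 in D, and Prm1 and Prm2 at 48.8 and 71.7. Prm1 and Prm2 had the same best-peak values in every list and may share their peaks, so the 3 markers need not be 3 separate loci. Tnp2 had no peak in any list. No Leydig (4 genes), peritubular (2 genes) or macrophage (2 genes) marker was called in any list. The part of earlier germ cells, of spermatids or of Sertoli cells in the values of the cyclins was not tested.

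Peaks often adjoined one another at these genes. Of the proximal peaks, 21 of 28 in LZ, 22 of 26 in P and 12 of 17 in D had a neighbour 20 bp away, so a gene with several peaks may have 1 continuous region of initiation. The number of peaks at Wee1 and Ccne2 is to be read with this in mind, and scores of joined peaks were not computed.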

How the data were processed

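leChRO-seq peaks were analysed for LZ, P and D, each from 4 libraries that the authors merged before calling. Per the submitters' processing notes reads were trimmed with cutadapt, mapped with BWA to mm10 and handled with bedtools, and the study's methods give dREG with default settings. Versions are not given in the sources used here. The methods describe paired-end reads, whereas the labels say single-end. For each peak the authors deposited a dREG score, a p-value of at most 0.05 (whether adjusted is not given in the sources used here) and a centre position. The centre was used only for an alternative distance. No depth is in the lists, the study's range of reads and normalization factors were not used, and the effect of depth on calls and scores could not be measured.

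Distances to GENCODE M21 TSSs, overlaps of at least 1 bp, percentiles and motif matches were computed with Python 3.11.15 and numpy 2.4.6, and figures with matplotlib 3.10.9. On simulated data the distance rule gave 0 wrong answers in 2000 comparisons, the percentile 0 in 500 and the motif scan 0 in 2100. The 10 genes and the lists were chosen with earlier results of these data known. All 10 genes were named. From the list of 30 were named those not called in all 3 substages and, of the others, the 3 largest rises and falls in percentile in each comparison. Spdya and the markers Kit, Dmrt1, Stra8, Zbtb16, Gfra1, Hormad1, Sycp3, Spo11, Mlh3, Dmc1, Tnp1, Tnp2, Prm1, Prm2 and Rhox5 were singled out after their values were seen. Marker lists covered meiotic prophase, pachynema and later, spermatid, spermatogonia, Sertoli, Leydig, peritubular and macrophage genes. Alternatives were a higher score, a lower p-value, lists of equal length, other TSS distances and sets, other rankings and another promoter window. No column of per-sample values was present.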

Additional observations from a re-analysis of the deposited data

How the results depend on the processing

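Over 12 alternatives, 113 of 136 counts and medians stayed within 1.5-fold or within the range allowed for a median. That range was the 95% interval over members, 70.4 to 93.8 in LZ, 58.0 to 94.1 in P and 47.8 to 86.2 in D. It reflects the spread between the chosen genes and not between replicates. It is wide, so a D median of 59.2 with scores of at least 0.5 still counted as within it. A median within this range therefore says little about stability. The 136 include the values of the 4 alternatives that moved no value. With scores of at least 0.5, gene-body peaks were at 0 members in LZ and 0 in D (20.4% and 8.82% of genes). By rank, 2 members were at least 10 points higher in P than in LZ and 7 lower in D than in P. With p-values of at most 0.01, 0 members had a gene-body peak in D (13.6% of genes) and 5 ranked lower in D. Shares of all genes passing the rank rule were computed only for the full lists, lists of equal length and the ranking among genes. The rank counts of the other alternatives therefore cannot be compared with all genes. With each list reduced to its 38603 highest-scoring peaks, 0 members had a gene-body peak in LZ (19.1% of genes). Then 3 ranked higher in P (28.3% of genes), 2 higher in D (24.3%) and 1 lower in D (21.4%). Ccnb1 reversed to 22.2 points higher in D than in P. This alternative removes the lowest peaks of LZ and P only. With a TSS distance under 500 bp, 2 members had a gene-body peak in LZ (35.1% of genes), 0 ranked higher in P and 1 higher in D. Ccne2 reversed in both comparisons (-27.3 in P against LZ, 10.7 in D against P), because its upstream peak is then left out. When a peak had to cover a TSS, 4, 5 and 4 members had a gene-body peak in LZ, P and D (52.5%, 52.5% and 36.8% of genes), 0 ranked higher in P, and Ccne2 reversed (-47.7). Taking the peak over or nearest to a TSS gave 0 members higher in P and the same value for Ccne2 (-47.7). Ranked among genes, the medians were 52.9 in LZ, 48.0 in P and 46.0 in D, 3 members ranked higher in P and 1 higher in D. Ccna2 lost its P call with scores of at least 0.5 and with lists of equal length, Ccnb2 lost its D call with scores of at least 0.5 and with p-values of at most 0.01, and Ccne2 lost its D call when a peak had to cover a TSS. The members' changes of at least 10 points were recomputed 65 times under the alternatives. Changes that had no value because of these lost calls are not counted among the 65. Of these 65 values, 60 had the same sign and 56 were also still at least 10 points. As 4 alternatives (centre distance, protein-coding or RefSeq TSSs, and a stricter gene body) moved no value, the counts without them are 39 and 35 of 44. No paired analysis was possible because the 3 lists were called on merged libraries and hold no replicate columns. Leaving out single libraries was therefore not possible either.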

Other observations

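A deposited p-value of 0 did not mark only high scores. It was listed for 29.4% of peaks in LZ, 27.8% in P and 24.1% in D, and 32.8%, 34.2% and 41.7% of these peaks had a score below the median of their list. The lowest score with a p-value of 0 was 0.281 in LZ, 0.273 in P and 0.268 in D. Of the 71 proximal peaks of the 10 genes, 7 had a p-value of 0 and a score below the median, among them the upstream Ccna2 peak in P (score 0.329) and a Ccne2 peak over a TSS in P (score 0.371). An alternative that keeps low p-values therefore keeps such peaks.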
